A study of Mus musculus with 9 samples.

Results

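The libraries of 66cl4 cells carrying either of a pair of short hairpins against Eya3 were set together, as 6 shEya3 libraries, against the 3 libraries of cells carrying a scrambled hairpin (SCR). A gene belonged to the shared response when the average of the 2 hairpins' log2 fold changes over SCR was called by edgeR (adjusted p under 0.05) and when each of the 6 shEya3 libraries lay above, or each lay below, all 3 SCR libraries. Of 55418 gene symbols counted, 15914 passed the filter on low counts, and 4613 of these (29.0%) met both conditions: 2108 rose (13.2%) and 2505 fell (15.7%). 66cl4 is a murine triple negative breast cancer line, grown in culture in calf serum. The 3 SCR libraries, the 3 of hairpin KD1 and the 3 of hairpin KD2 were labelled as biological replicates, and all 9 came from cells held in puromycin at 2.5 ug/ml after transduction. Nothing in the labels says that the replicates were transduced separately, so each hairpin and the scrambled control may be 1 population of transduced cells, and p-values measure only the spread between these libraries. A change that is particular to the SCR population cannot be told apart from one that both hairpins share, because every comparison runs against the same 3 SCR libraries.

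Eya3 belongs to the Eyes absent family, proteins that join homeodomain DNA-binding factors as transcriptional coactivators and that also carry a tyrosine phosphatase domain. Dach proteins act with the same complexes, often as repressors. In breast cancer models Eya proteins are known for roles in invasion, DNA repair and immune signalling.

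Eya3 (chr4:132638987-132724765 of mm10, plus strand) stood at 68.1, 79 and 71.7 CPM in the SCR libraries, 24.9, 21.5 and 22.9 with KD1 and 38.7, 39.8 and 34.1 with KD2, where CPM is the read count scaled by library total and edgeR's TMM factors. No shEya3 library reached the lowest SCR library, and no KD1 library reached the lowest KD2 library. The mean over the 6 libraries was 41.6% of the SCR mean, a difference of -42.6 CPM (two-sided exact permutation test over 84 arrangements, p = 0.0238, the smallest that 6 libraries against 3 can give). On the log2 scale Eya3 changed by -1.31 ± 0.07 (SE) on average over the hairpins, by -1.66 with KD1 and by -0.96 with KD2 (edgeR's quasi-likelihood test, adjusted p = 6.69e-10 for the mean). Among 2111 falling genes with at least 1 CPM in some group, Eya3 ranked 445 by mean change and 166 by p-value. Of its family, 9 tested of 12 listed, 4 fell, Eya3 itself among them, and 2 rose. These shares were 44.4% and 22.2%, against 15.7% and 13.2% of all tested genes. Dach1 stood at 2.77 to 4.14 CPM in SCR, 0.144 to 0.257 with KD1 and 0 to 0.0195 with KD2, and Eya4 at 0.625 to 0.732 CPM in SCR, 0.375 to 0.445 with KD1 and 0.0739 to 0.189 with KD2, both lower with either hairpin. Eya1 fell too (-0.77). Eya2 rose from a range of 0.0787 to 0.168 CPM in SCR to 0.605 to 1.15 with KD1 and 0.425 to 0.488 with KD2 (2.30 ± 0.33, SE), and Six3, a homeobox factor, rose by 0.76.

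Total counts ran from 27758862 to 52691960 per library and did not separate the groups (exact permutation p = 0.286). Mitochondrially encoded genes took 1.39% to 2.17% of counts in SCR and 1.68% to 2.47% in shEya3 (exact permutation p = 0.214). The number of symbols with a count was lower in every shEya3 library, at 21325 to 23011, than in every SCR library, at 23191 to 23934 (exact permutation p = 0.0238); its part in the falling calls was not tested. In bulk RNA, fewer cells of a kind and less RNA per cell cannot be told apart.

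The shared response was wide and mostly shallow on the rising side and deeper on the falling side. The mean contrast alone called 7581 genes (47.6%), 3702 upward (23.3%) and 3879 downward (24.4%). Rising members had a median log2 change of 0.45, 64.4% of them changed less than 1.5-fold, and 313 passed 2-fold. Falling members had a median of -0.67, 43.8% changed less than 1.5-fold, and 917 passed 2-fold; 466 fallers and 103 risers passed 4-fold. Over all tested genes the median was 0.00. Each hairpin alone called 1592 of the risers and 2066 of the fallers. The libraries of 624 fallers averaged under 1 CPM with each hairpin, and those of 229 risers averaged under 1 CPM in SCR, so many of these genes entered the test only through the group in which they were high. Among 12052 protein-coding genes 15.7% rose and 17.2% fell, whereas among 563 long intergenic noncoding RNAs 7.64% rose and 25.9% fell. The median gene spanned 30830 bases among risers, 17594 among fallers and 15966 among all tested genes.

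Chemokines and other genes known as targets of NF-kB, the transcription factor family that drives inflammatory gene expression, included many fallers and no riser. Promoters of 4 of the fallers are printed first because they hold matches to the sequence this factor family binds. Of NF-kB targets, 26 tested of 33 listed, 14 fell (53.8%, against 15.7% of all tested genes) and none rose (against 13.2%), with a median change of -0.85. The counts of every list below are to be read against these shares of all tested genes. Of chemokines, 14 tested of 24 listed, 6 fell (42.9%) and none rose, with a median of -1.74, or -1.05 with genes that lack counts in a group set at their bound. With the 6 shEya3 libraries fitted as a single group, the median of the chemokines was -0.67. The hairpins were unequal. The NF-kB median was -1.24 with KD1 and -0.33 with KD2, and the chemokine median, without that bound, -2.88 and -0.55. The hairpins were called in opposite directions in 2 of the 26 NF-kB targets and 4 of the 14 chemokines. Called on the mean but overlapping with SCR were 8 and 5. Of the 6 chemokines that fell, 5 are also on the NF-kB list. The promoter stretches below, from RefSeq (build GRCm38.p6), end at the base before the annotated start. Capitals mark matches to GGNNTTTCC on either strand. They cover chr5:90891125-90891244, chr5:90903779-90903898 and chr5:90785981-90786100 on the plus strand and chr12:55492648-55492847 on the minus strand.
Cxcl1: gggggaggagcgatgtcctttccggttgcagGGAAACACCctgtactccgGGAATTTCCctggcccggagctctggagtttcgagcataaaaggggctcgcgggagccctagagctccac
Cxcl2: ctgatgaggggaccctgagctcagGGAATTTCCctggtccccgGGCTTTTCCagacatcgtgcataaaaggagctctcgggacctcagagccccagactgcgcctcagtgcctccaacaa
Cxcl3: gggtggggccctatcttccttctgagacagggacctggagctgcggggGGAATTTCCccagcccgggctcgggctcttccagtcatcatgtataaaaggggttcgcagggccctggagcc
Nfkbia: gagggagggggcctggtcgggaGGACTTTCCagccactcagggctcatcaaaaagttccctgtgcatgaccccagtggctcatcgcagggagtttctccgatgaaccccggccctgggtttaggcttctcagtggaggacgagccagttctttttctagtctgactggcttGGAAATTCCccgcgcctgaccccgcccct

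The matches began 89 and 70 bases before the start in Cxcl1, 96 and 77 in Cxcl2, 72 in Cxcl3, and 178 and 29 in Nfkbia. Cxcl1 and Cxcl2 each held a pair whose first bases lay 19 bases apart. Among 8129 tested genes whose symbol matched exactly 1 promoter of 300 bases in the RefSeq table, 6.27% held the motif, against 4.77% of risers and 7.40% of fallers. On the NF-kB list 15 members had such a promoter and 8 held the motif: 4 of 9 that fell (Nfkbia, Cxcl1, Cxcl2 and Ier3) and 4 of the 6 others (Rel, Tnfaip2, Bcl3 and Ccl20). A match describes letters in a window and not binding.

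Cxcl1, a chemokine that draws neutrophils, stood at 215, 203 and 214 CPM in the SCR libraries, 17.2, 18.4 and 21.3 with KD1 and 74.9, 57.5 and 77.9 with KD2. Its neighbour Cxcl3 stood at 88.4, 81.4 and 76.4 CPM in the SCR libraries, 8.04, 7.84 and 8.99 with KD1 and 24.6, 22.3 and 27.8 with KD2. In both genes the 3 groups did not overlap, with SCR highest and KD1 lowest. The changes were -2.53 ± 0.09 for Cxcl1 and -2.51 ± 0.07 for Cxcl3 (SE, adjusted p = 2.67e-11 and 1.12e-12, edgeR). Across this cluster on chromosome 5, from Cxcl5 at base 90759360 to the end of Cxcl2 at base 90905938, 5 chemokine genes fell; Cxcl5, Ppbp and Cxcl2 are named here after their values were seen. Cxcl5 changed by -2.33 (187 to 218 CPM in SCR, 21 to 21.3 with KD1 and 68.6 to 89.3 with KD2). Ppbp changed by -2.47 and Cxcl2 by -1.32, both from low levels of at most 1.23 and 0.457 CPM in SCR.

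Ccl2 (chr11:82035571-82037453), which attracts monocytes, had a smaller p-value than all but 2 other falling genes. It stood at 118, 112 and 108 CPM in the SCR libraries, 0.425, 0.679 and 0.375 with KD1 and 28.8, 26.2 and 29.8 with KD2. The KD1 libraries held almost none and the KD2 libraries lay well apart from both other groups, for a mean change of -4.90 ± 0.09 (SE, adjusted p = 6.31e-15, edgeR). Ccl7, the next gene along chromosome 11, stood at 5.77 to 6.29 CPM in SCR, 0 to 0.0749 with KD1 and 0.39 to 0.755 with KD2 and changed by -5.45 ± 0.22 (SE). Mmp9, a gelatinase, changed by -3.15 ± 0.09 (SE), from a range of 14.5 to 16.6 CPM in SCR to 0.445 to 0.599 with KD1 and 5.41 to 5.95 with KD2. Nfkbia, the inhibitor protein that NF-kB induces in feedback, stood at 192, 182 and 178 CPM in the SCR libraries, 40.6, 43.6 and 35.2 with KD1 and 106, 98.8 and 103 with KD2 and changed by -1.53 ± 0.06 (SE). Ier3, an early response gene that modulates survival, went from a range of 291 to 316 CPM in SCR to 49.7 to 56.4 with KD1 and 153 to 163 with KD2 (-1.75 ± 0.06, SE). In each of these 5 genes KD1 libraries were lowest and KD2 libraries intermediate.

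At the top of the rising side by mean change stood genes that were low or close to silent in SCR cells. Spint2 (chr7:29256323-29281912), a membrane inhibitor of serine proteases, ranked 1 by mean change, by the smaller of the hairpins' changes and by p-value. It stood at 0, 0.0787 and 0.024 CPM in the SCR libraries, 54.9, 51.9 and 52.2 with KD1 and 4.15, 4.51 and 5.03 with KD2, and changed by 8.68 ± 0.22 (SE, adjusted p = 3.2e-13, edgeR). Every shEya3 library was far above every SCR library, and the KD1 libraries were far above the KD2 libraries. Nudt14, a hydrolase of nucleotide sugars, rose about as far with either hairpin, at 0.0396 to 0.177 CPM in SCR, 8.44 to 10.4 with KD1 and 7.43 to 9.16 with KD2 (6.46 ± 0.24, SE). Gxylt2, which adds xylose to O-glucose on Notch repeats, stood at 0.118 to 0.158 CPM in SCR, 14.4 to 16.4 with KD1 and 6.02 to 9.31 with KD2 (6.31). Aqp1, a water channel, stood at 0.0962 to 0.178 CPM in SCR, 15.4 to 18.5 with KD1 and 4.86 to 7.17 with KD2 (6.29). Mrc2, a collagen uptake receptor, stood at 0.93 to 1.32 CPM in SCR, 71.7 to 91.5 with KD1 and 16.6 to 24.2 with KD2 (5.16). KD1 was the higher in the last 3.

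Krt18, the keratin that pairs with Krt8 in simple epithelia, was higher with KD2, at 0.0198 to 0.0393 CPM in SCR, 0.936 to 0.98 with KD1 and 2.2 to 3.14 with KD2 (5.67 ± 0.33, SE). Irx1, an Iroquois homeobox factor, held 2 counts over the 3 SCR libraries, 15 with KD1 and 536 with KD2. Its ratio of shEya3 to SCR was 165 with a 95% interval of 45.6 to 1369 that covers counting error only. Nearly all of its counts came from KD2. Trp53i11 (4.67), Tenm4, a teneurin of neuronal contacts (4.62), and Pbp2 (4.30) leaned the other way, with KD1 changes of 6.42, 6.52 and 5.38 against 2.92, 2.73 and 3.22 with KD2. Epha4, a receptor for ephrins, stood at 0 to 0.12 CPM in SCR, 0.807 to 1.05 with KD1 and 1.49 to 1.81 with KD2 (4.19), and Serpina9, a serine protease inhibitor, at 0.0481 to 0.118 CPM in SCR, 1.82 to 2.39 with KD1 and 1.13 to 1.63 with KD2 (4.14).

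At the top of the falling side stood genes that lost every count. Myf5 (chr10:107482908-107486134), a myogenic transcription factor, held 1.84, 1.63 and 1.73 CPM in SCR, 248 counts in all, and no count in any shEya3 library. Set against a floor of 3 counts over the 6 libraries, it was at least 137.7-fold lower. Mmp1b, a collagenase relative, held 180 counts in SCR and none in shEya3, at least 99.96-fold lower on the same floor. Efhc2 and Nlrp14 held no count with KD1. Efhc2, an EF-hand protein, stood at 4.64 to 5.09 CPM in SCR and 0.0472 to 0.176 with KD2, and Nlrp14, a germ cell NLR protein, at 2.85 to 3.11 CPM in SCR and 0.148 to 0.212 with KD2. Both were far below SCR in every KD2 library.

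Procr (chr2:155751117-155755471), the endothelial protein C receptor and a marker of mammary progenitor cells, had the smallest p-value of all fallers. It stood at 169, 166 and 157 CPM in the SCR libraries, 0.050, 0.0468 and 0.0865 with KD1 and 26, 22.3 and 27 with KD2. KD1 libraries were near 0, KD2 libraries lay between them and SCR, and the replicates of each group lay close together, for a mean change of -7.03 ± 0.09 (SE, adjusted p = 5.56e-16, edgeR). Adam22, a catalytically inactive ADAM protein that anchors synaptic ligands, fell with both hairpins, at 16.7 to 19 CPM in SCR, 0.0936 to 0.173 with KD1 and 0.369 to 0.448 with KD2 (-6.25 ± 0.12, SE). Wfdc15a, a secreted whey acidic protein family member, stood at 6.16 to 7.36 CPM in SCR, 0 to 0.202 with KD1 and 0.0369 to 0.189 with KD2 (-5.93), and Slc7a14, a lysosomal amino acid transporter relative, at 8.35 to 9.04 CPM in SCR, 0.0468 to 0.175 with KD1 and 0.0739 to 0.33 with KD2 (-5.70). These 3 genes were near 0 with either hairpin.

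Nkd1, Syt1 and Rxfp1 fell with both hairpins, and further with KD1. Nkd1, an inhibitor of Wnt signalling, stood at 30.0 to 31 CPM in SCR, 0 to 0.0936 with KD1 and 7.25 to 8.57 with KD2 (-5.67 ± 0.13, SE). Syt1, a calcium sensor of vesicle release, stood at 4.11 to 4.59 CPM in SCR, 0 to 0.0234 with KD1 and 0.48 to 0.741 with KD2. Rxfp1, the relaxin receptor, held no count with KD1 and 1.76 to 2.62 CPM with KD2 against 2.89 to 4.74 in SCR, so its KD2 libraries came near the SCR range without entering it. Rxfp1 ranked 14 by mean change and 366 by the smaller change.

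How the response was ordered decided which falling genes led it. The 50 falling genes with the largest mean change had a median of -7.98 with KD1 and -2.82 with KD2, and 14 of them held no count in some group. Ranked by the smaller of the hairpins' changes, the leading 50 had medians of -4.68 and -3.51, and shared 29 genes with the first 50. Ranked by p-value, they shared 11. On the rising side the mean and the smaller change shared 41 of 50, and the mean and the p-value 15. Adam22 stood at rank 8, 5 and 5 in the 3 orders, whereas Procr stood at 5, 45 and 1 and Myf5 at 1, 1 and 312.

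**Figure D1:**
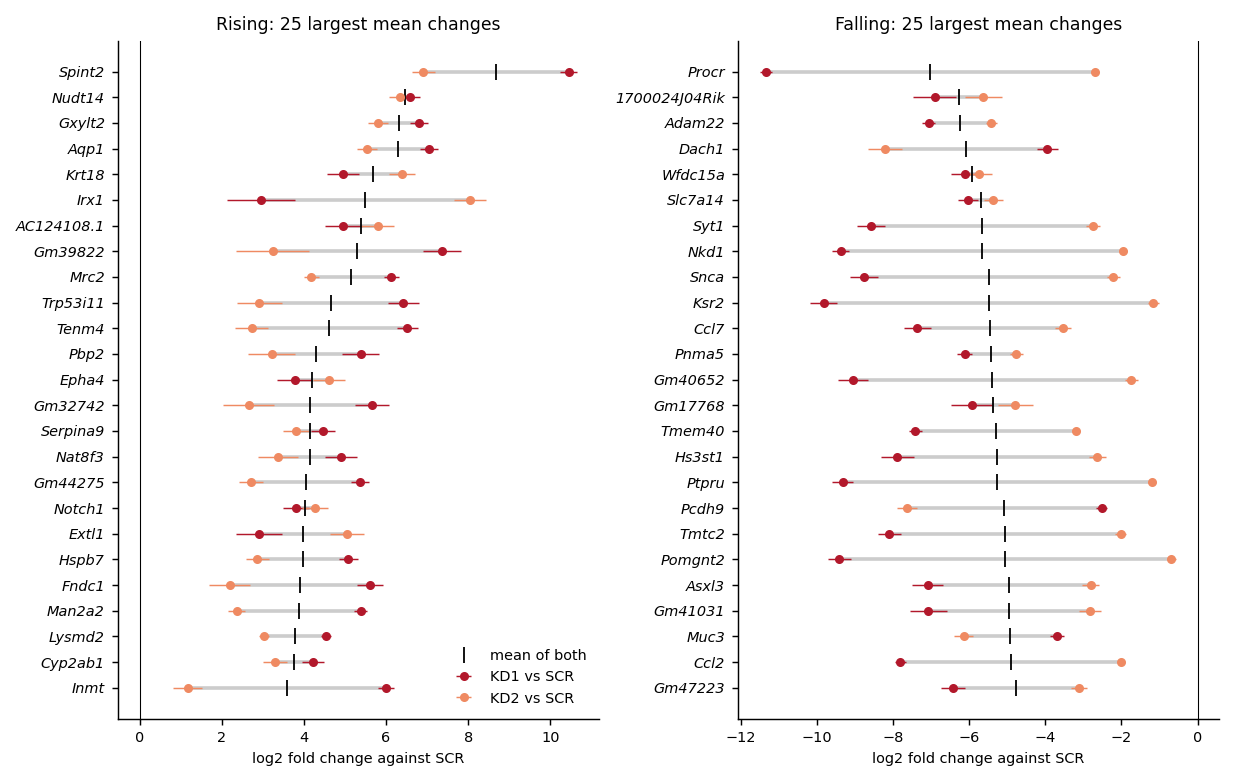
Log2 fold change against SCR (horizontal axis) of the 25 rising and the 25 falling genes with the largest mean change, leaving out genes without a count in some group; points are KD1 and KD2, bars their standard errors, and black ticks the mean. KD1 gave the larger change in 19 of the 25 risers and in 22 of the 25 fallers shown.

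The hairpins were called different from each other in 904 of the risers (42.9%; 546 larger with KD1, 358 larger with KD2) and in 1213 of the fallers (48.4%; 969 larger with KD1, 244 with KD2), against 49.6% of all tested genes. When the 6 libraries were instead fitted as a single group, so that the distance between hairpins counted as spread, 3328 of the 4613 genes (72.1%) stayed called. The calls on Procr (adjusted p = 0.0893 in that fit, edgeR), Ccl2 (0.111), Mmp9 (0.0780), Nkd1 (0.135), Rxfp1 (0.291) and Spp1 (0.0582) were lost. Among the other genes described here calls were also lost on Ankrd1, Canx, Cdh5, Eya4, Gatm, H2-T23, Ifit2, Klf2, Krt8, Mmp24, Mt2, Osgin1, Pfkfb4, Plpp3, Sema6a, Serpinb9b, Slc39a4, Sphk1 and Tnxb, with adjusted p up to 0.479 for Slc39a4. That all 6 shEya3 libraries of these genes lay on the same side of SCR was a condition of the shared response and adds no support.

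Among genes averaging at least 100 CPM, 8 risers were named by the size of their mean change. Thbs1 (chr2:118111876-118127133), thrombospondin 1, a matrix glycoprotein that restrains angiogenesis, stood at 16.5, 19.3 and 22 CPM in the SCR libraries, 449, 351 and 349 with KD1 and 128, 167 and 108 with KD2 (3.56 ± 0.17, SE). Spp1, osteopontin, stood at 283, 297 and 287 CPM in the SCR libraries, 1800.2, 1919 and 1848 with KD1 and 417, 444 and 418 with KD2 (1.62 ± 0.06, SE). Its KD2 libraries lay only a little above SCR (0.56), far below KD1 (2.68). Eif4g3, a scaffold of translation initiation, stood at 39.9, 44.7 and 47.8 CPM in the SCR libraries, 234, 200.1 and 204 with KD1 and 193, 223 and 173 with KD2, and the hairpins overlapped each other (2.21 ± 0.09, SE). Cav1, the coat protein of caveolae, likewise rose to overlapping levels, from 81.9, 75.1 and 78.4 CPM in SCR to 215, 214 and 191 with KD1 and 218, 205 and 209 with KD2 (1.41 ± 0.06, SE). Asap1, which turns off Arf GTPases at adhesions (1.51), Syne3, a linker of the nuclear envelope (1.41), Mta1, a subunit of the NuRD chromatin complex (1.36), and Dmpk, a serine/threonine kinase (1.26), rose with both hairpins too.

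**Figure D2:**
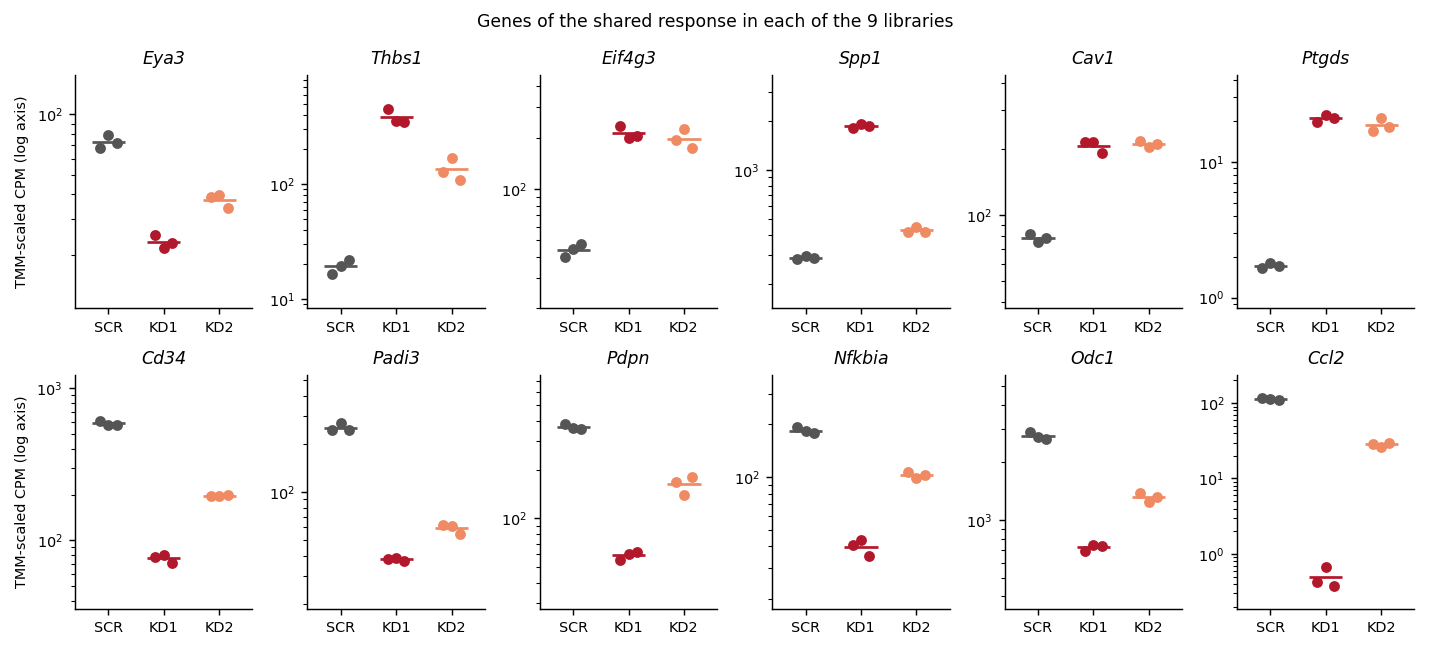
TMM-scaled CPM (vertical log axes, each with its own range) of Eya3 and 11 other genes of the shared response in each of the 9 libraries; points are libraries and horizontal bars group means. All 6 shEya3 libraries lie below SCR in the Eya3, Cd34, Padi3, Pdpn, Nfkbia, Odc1 and Ccl2 panels and above SCR in the other 5, with KD1 farther from SCR than KD2 except in Cav1, Eif4g3 and Ptgds, where the hairpins overlap or nearly meet.

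Among fallers averaging at least 100 CPM, Padi3 had the largest mean change. Padi3, which converts arginine residues to citrulline, stood at 244, 271 and 246 CPM in the SCR libraries, 38.1, 38.4 and 37.1 with KD1 and 62, 61.5 and 54.9 with KD2 (-2.42 ± 0.06, SE). Cd34 (chr1:194938819-194961279), a sialomucin of progenitor and endothelial cells, stood at 609, 575 and 572 CPM in the SCR libraries, 77.5, 80.2 and 71.2 with KD1 and 197, 194 and 197 with KD2 (-2.26 ± 0.05, SE). Neither gene had an shEya3 library within 2-fold of the lowest SCR library. Serpinb9b, an inhibitor of granzyme-like proteases, fell mostly with KD1 (-3.64 against -0.78 with KD2), at 234 to 238 CPM in SCR, 17 to 21.8 with KD1 and 111 to 166 with KD2. Ccbe1 is a matrix protein that aids the processing of the lymphatic growth factor Vegfc. It stood at 471 to 517 CPM in SCR, 62.6 to 75.6 with KD1 and 186 to 214 with KD2 (-2.06 ± 0.07, SE). Pdpn, podoplanin, stood at 357 to 384 CPM in SCR, 55.5 to 62.5 with KD1 and 139 to 179 with KD2 (-1.90 ± 0.07, SE). Odc1 (chr12:17544794-17551505), the rate-limiting enzyme of polyamine synthesis, stood at 2870.2, 2729.5 and 2661 CPM in the SCR libraries, 689, 742 and 737 with KD1 and 1386, 1239.7 and 1321 with KD2 (-1.50 ± 0.06, SE), with all 3 groups apart. The reads of Odc1, Spp1 and Ccbe1 are uncertain to the extent that an annotated gene overlaps each on the same strand.

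Some genes answered both hairpins to a like degree, while Eya3 itself was lower with KD1 than with KD2. The 6 risers and 6 fallers of this rule had the largest mean changes among genes whose hairpins were not called different and lay within 0.25 of each other on the log2 scale. Ptgds, a prostaglandin D2 synthase, stood at 1.66, 1.79 and 1.71 CPM in the SCR libraries, 19.7, 22.1 and 21 with KD1 and 17, 21.3 and 18.1 with KD2 (3.60 with KD1, 3.44 with KD2). Bgn, the proteoglycan biglycan (3.42 and 3.28), Spns2, the exporter of sphingosine 1-phosphate (3.00 and 2.98), Adam19, a metalloprotease (2.26 and 2.18), and Hipk2, a kinase of stress signalling (2.20 and 2.20), shared this evenness with Eif4g3. Spns2 stood at 4.34, 6.53 and 4.76 CPM in the SCR libraries, 44.4, 43 and 38.2 with KD1 and 43.8, 40.9 and 38.6 with KD2, and its 6 shEya3 libraries spanned a narrow range far above SCR. Among the fallers so chosen, Myf5 and Mmp1b held no count with either hairpin, so the equality of their fitted changes follows from those zeros and shows no even response. The other 4 were low in level. Platr4, a noncoding RNA, stood at 2.57 to 2.75 CPM in SCR, 0.225 to 0.351 with KD1 and 0.195 to 0.307 with KD2 (-3.31). Ttc29 of sperm flagella (-2.81), Adh1, an alcohol dehydrogenase (-2.79), and Arhgap30, a GTPase-activating protein (-2.62), each stayed under 1 CPM in all 6 shEya3 libraries.

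On the rising side the smallest p-values were those of Spint2, Palm3, Lysmd2, Klhl30, Ptgds and Pcdh18. Palm3, a paralemmin at the plasma membrane, rose further with KD2, at 9.24, 8.87 and 8.61 CPM in the SCR libraries, 35.4, 35.9 and 32.2 with KD1 and 108, 109 and 94.8 with KD2 (2.75 ± 0.08, SE, adjusted p = 6.5e-13, edgeR). Klhl30, a kelch adaptor, also rose further with KD2 (2.46 with KD1, 3.11 with KD2), whereas Lysmd2 (4.54 and 3.03) and the protocadherin Pcdh18 (2.75 and 1.62) rose further with KD1. On the falling side Procr was followed by Mmp24, a membrane metalloprotease, at 126, 126 and 121 CPM in the SCR libraries, 0.50, 0.491 and 0.346 with KD1 and 68.9, 68.7 and 63.4 with KD2. KD1 libraries were near 0 and KD2 libraries well below SCR, and its mean change of -4.49 ± 0.07 (SE) joined -8.09 with KD1 to -0.89 with KD2. Grhl2, a transcription factor that maintains epithelial genes, stood at 63.6, 60.8 and 59.9 CPM in the SCR libraries, 1.42, 1.43 and 1.15 with KD1 and 15.2, 15 and 14 with KD2 (-3.79 ± 0.07, SE). Slc39a4, a zinc importer, stood at 36.9 to 38.3 CPM in SCR, 0.281 to 0.325 with KD1 and 27.2 to 29.2 with KD2, with -6.97 for KD1 against -0.43 for KD2. Fitted as a single group, Mmp24 (adjusted p = 0.375) and Slc39a4 (0.479) were no longer called by edgeR.

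The condition of no overlap removed 2968 genes that the mean contrast called. Of these, 2649 were not called with 1 of the hairpins. Among all called genes 225 had hairpins called in opposite directions. Tysnd1, a peroxisomal protease, was of the first kind. It stood at 13.7, 14.2 and 14.8 CPM in the SCR libraries, none with KD1 and 15.3, 13.1 and 14 with KD2, so the KD2 libraries were at the SCR level and KD1 had no count. Gypc (10.4 to 11.7 CPM in SCR, 0 with KD1 and 11.5 to 12.1 with KD2), a red cell membrane protein, and Dnah7a (7.72 to 8.18 CPM in SCR, 0 with KD1 and 8.5 to 10.6 with KD2), a dynein of cilia, had the same shape. Acss3, a mitochondrial acyl-CoA synthetase, was of the second, at 8.22, 9.79 and 9.55 CPM in the SCR libraries, 0.025, 0.0234 and 0 with KD1 and 20.2, 23.7 and 21.7 with KD2. Its mean change of -3.80 joined -8.84 with KD1 to 1.25 with KD2. Trp63, a factor of basal epithelial identity (0 to 0.0198 CPM in SCR, 4.06 to 5.36 with KD1 and 0 to 0.0236 with KD2), Serpinb7 (0 CPM in SCR, 0.949 to 1.21 with KD1 and 0 to 0.0585 with KD2) and Pnma2 (0 CPM in SCR, 2.05 to 2.53 with KD1 and 0 to 0.0369 with KD2) were high in the KD1 libraries and near 0 elsewhere, and Tbc1d24 (0.0197 to 0.0721 CPM in SCR, 0.0234 to 0.115 with KD1 and 4.04 to 5.25 with KD2) was high in the KD2 libraries.

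Members of the list of matrix proteases and their inhibitors fell more often than they rose. Of matrix proteases and their inhibitors, 25 tested of 42 listed, 15 fell (60%, against 15.7% of all tested genes) and 3 rose (12%, against 13.2%; median -0.72). Beside Mmp1b, Mmp9, Mmp24 and Adam22, the stromelysin Mmp3 stood at 1.73 to 1.96 CPM in SCR, 0.175 to 0.375 with KD1 and 0 to 0.111 with KD2, lower with KD2 than with KD1 (-4.12 ± 0.30, SE). The summed level of the list was 1856 to 1914 CPM in SCR, 1378 to 1511 with KD1 and 1439 to 1518 with KD2. Matrix proteins themselves moved both ways. Of glycoproteins and proteoglycans, 26 tested of 45 listed, 9 rose and 7 fell. Tnxb, a tenascin, rose mainly with KD2 (0.885 to 0.986 CPM in SCR, 1.38 to 2.02 with KD1 and 18.9 to 21.3 with KD2), and the cartilage proteoglycan Acan stood at 0.409 to 0.669 CPM in SCR, 0.0288 to 0.125 with KD1 and 0.0236 to 0.185 with KD2. Of collagen chains, 23 tested of 33 listed, 8 fell and 3 rose; Col16a1 (-2.95) and Col11a1 (-2.82) fell, Col4a6 rose (2.67), and Col4a4 stood at 0.481 to 0.688 CPM in SCR, 0 to 0.0749 with KD1 and 0.0236 to 0.117 with KD2.

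Adhesion genes were also divided. Of integrins and laminins, 21 tested of 30 listed, 5 rose and 3 fell. Itgb4, an integrin of epithelial anchoring, rose (1.26 ± 0.12, SE), and Lamb3, a chain of epithelial laminin, fell from a range of 5.58 to 6.65 CPM in SCR to 1.12 to 1.82 with KD1 and 0.887 to 1.6 with KD2. Lama5 rose by 0.74 ± 0.16 (SE). Of cadherins and protocadherins, 16 tested of 30 listed, 5 rose and 4 fell. Pcdh9 (6.87 to 7.65 CPM in SCR, 1.24 to 1.29 with KD1 and 0 to 0.0585 with KD2) was close to 0 with KD2, and Cdh5, the endothelial cadherin (3.44 to 3.97 CPM in SCR, 0.234 to 0.30 with KD1 and 1.81 to 2.38 with KD2), was lowest with KD1. Celsr1, a planar polarity cadherin, fell evenly (-1.60 and -1.89). Of ephrins, semaphorins and their receptors, 33 tested of 41 listed, 9 rose and 9 fell. The named semaphorins fell: Sema3c from a range of 55.7 to 60.3 CPM in SCR to 5.17 to 5.97 with KD1 and 14.2 to 17.8 with KD2, Sema4a by -3.15 ± 0.14 and Sema6a by -2.48 ± 0.15 (SE).

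Growth factor pathways showed more rises than falls for TGF-beta, BMP and Wnt genes. Of TGF-beta and BMP genes, 30 tested of 40 listed, 14 rose (46.7%, against 13.2% of all tested genes) and 5 fell (16.7%, against 15.7%; median 0.25). Antagonists were among the largest changes. Fst, follistatin, which binds activins, stood at 3.98, 3.62 and 3.37 CPM in the SCR libraries, 35.4, 38.1 and 37.1 with KD1 and 15.7, 13.3 and 15.3 with KD2 (2.67 ± 0.09, SE). Smad6, an inhibitory Smad, rose from a range of 1.78 to 2.06 CPM in SCR to 7.12 to 8.99 with KD1 and 6.34 to 6.77 with KD2 (1.89 ± 0.11, SE). Fstl1 rose (1.78) and Fstl3, a follistatin relative, fell from a range of 34.7 to 39.9 CPM in SCR to 8.36 to 9.01 with KD1 and 15.4 to 16.7 with KD2. Of Wnt genes, 23 tested of 42 listed, 8 rose and 2 fell (median 0.23). Both fallers, Nkd1 and the ligand Wnt9a (-1.17 ± 0.10, SE), were lower with each hairpin, while the ligands Wnt7a (1.23 ± 0.15) and Wnt10a (0.96 ± 0.24) rose.

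Of the Notch pathway, 22 tested of 28 listed, 2 rose (9.09%, against 13.2% of all tested genes) and 3 fell (13.6%, against 15.7%). Notch1, a receptor, stood at 0.416, 0.61 and 0.505 CPM in the SCR libraries, 7.97, 6.11 and 7.49 with KD1 and 8.66, 14.4 and 7.01 with KD2 (4.03 ± 0.30, SE), whereas the receptor Notch4 fell from a range of 6.63 to 10.2 CPM in SCR to 0.807 to 1.05 with KD1 and 1.94 to 3.69 with KD2. Dtx1, a Notch modulator (-2.37), and Hey1, a target of the pathway (-0.90), fell as well. Of ErbB receptors and ligands, 10 tested of 15 listed, Erbb4 (-4.28 ± 0.29), the ligand Hbegf (-0.85 ± 0.06) and the feedback inhibitor Errfi1 (-0.77 ± 0.05) fell, and Erbb2 (0.31 ± 0.07) and the ligand Areg (0.72 ± 0.07) rose. Of Hippo effectors and targets, 25 tested of 27 listed, 4 rose (16%) and 2 fell (8%). The DNA-binding partners Tead3 (1.35 ± 0.08) and Tead2 (0.92 ± 0.07) rose with the tissue factor gene F3 (0.99 ± 0.09), and the target Ankrd1 stood at 671 to 714 CPM in SCR, 219 to 230.2 with KD1 and 504 to 611 with KD2.

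More genes rose than fell on the lists of Atf4, hypoxia and cholesterol genes, though not all members were called. Of Atf4 and unfolded protein response genes, 31 tested of 32 listed, 13 rose, 1 fell and 10 were not called by the mean contrast (median 0.29). Atf5, a stress transcription factor, stood at 74.8, 79.8 and 76.4 CPM in the SCR libraries, 165, 210.4 and 169 with KD1 and 166, 188 and 149 with KD2 (1.18 ± 0.09, SE), followed by the lipoprotein receptor Vldlr (1.02), the mTORC1 inhibitor Sesn2 (0.89) and Psph, which completes serine synthesis (0.82). Of hypoxia and glycolysis genes, 31 tested of 36 listed, 12 rose, 3 fell and 10 were not called (median 0.26). Car9, a carbonic anhydrase induced by hypoxia, stood at 11.2, 17.9 and 14.8 CPM in the SCR libraries, 122, 101 and 97.2 with KD1 and 38.9, 47.6 and 39.5 with KD2, and Egln3, an oxygen sensor that hypoxia also induces, moved the other way, at 151, 146 and 142 CPM in the SCR libraries, 41.2, 35.4 and 34.3 with KD1 and 75.7, 73.3 and 73 with KD2. Ddit4, an inhibitor of mTORC1 (1.13), and Pfkfb4, a regulator of glycolysis (0.95), rose. Of cholesterol synthesis genes, 27 tested of 28 listed, 11 rose, 3 fell and 11 were not called (median 0.10); Insig1, the sterol feedback protein (0.84 ± 0.05), and the enzymes Sqle (0.76 ± 0.06), Cyp51 (0.68 ± 0.06) and Fdps (0.65 ± 0.07) led. Of the tested members of these 3 lists 38.7% to 41.9% rose, against 13.2% of all tested genes.

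Of polyamine, urea cycle and proline enzymes, 18 tested of 23 listed, 9 fell (50%, against 15.7% of all tested genes) and 2 rose. The summed level of this list, Odc1 included, was 4109.7 to 4355 CPM in SCR, 2049 to 2177 with KD1 and 2446 to 2699 with KD2. Cps1, which starts the urea cycle, stood at 3.8 to 4.37 CPM in SCR, 0.050 to 0.173 with KD1 and 0.222 to 0.307 with KD2 (-4.40 ± 0.18, SE), and Gatm, which makes the creatine precursor (1.61 to 1.84 CPM in SCR, 0 to 0.0865 with KD1 and 0.702 to 0.803 with KD2), and Nos2, the inducible nitric oxide synthase (0.871 to 1.12 CPM in SCR, 0.0702 to 0.0865 with KD1 and 0.26 to 0.406 with KD2), were lower too. Of Nrf2 targets, 28 tested of 30 listed, 6 rose and 6 fell. In 5 other members the hairpins were called in opposite directions, and the list's median was -0.30 with KD1 and 0.44 with KD2. Osgin1 (21.6 to 30.1 CPM in SCR, 1.45 to 2.67 with KD1 and 8.92 to 13.3 with KD2), the metallothionein Mt2 (281 to 307 CPM in SCR, 62.1 to 69.2 with KD1 and 225 to 271 with KD2) and the glutathione transferase Gstm2 (24 to 27.2 CPM in SCR, 10.8 to 11.7 with KD1 and 5.89 to 6.17 with KD2) fell, Gstm2 further with KD2 and the others further with KD1, while Ephx1, an epoxide hydrolase, rose (1.02 ± 0.07, SE).

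Of prostaglandin and sphingosine 1-phosphate genes, 21 tested of 29 listed, 9 fell and 4 rose. Sphk1, the kinase that makes sphingosine 1-phosphate, fell from a range of 64.4 to 69.1 CPM in SCR to 12.1 to 12.3 with KD1 and 47 to 51.3 with KD2, while Spns2, which carries the product out of the cell, rose as described. Plpp3, a phosphatase that breaks down such lipids, fell (-1.51 ± 0.13, SE). Of early response genes, 29 tested of 33 listed, 6 rose and 7 fell. The Kruppel-like factors Klf4 (7.96 to 8.83 CPM in SCR, 34.2 to 43 with KD1 and 29.9 to 32.5 with KD2) and Klf2 (1.03 to 1.51 CPM in SCR, 13 to 16.6 with KD1 and 2.05 to 2.22 with KD2) and the factor Egr2 (1.77 ± 0.18, SE) rose.

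Most proliferation genes were not called, as was true of most genes tested. Of DNA replication genes, 38 tested of 38 listed, 5 rose (13.2%), 7 fell (18.4%) and 21 were not called (median -0.01), and of mitosis genes, 36 tested of 36 listed, 4 rose (11.1%), 3 fell (8.33%) and 19 were not called (median 0.05). Over all tested genes 13.2% rose and 15.7% fell, and the mean contrast called 47.6%, with or without overlap. Among these changes were those of Rfc5, a clamp loader subunit (-0.56 ± 0.06), the cyclin Ccne1 (-0.52 ± 0.05) and the centrosome kinase Nek2 (-0.50 ± 0.06, all SE). Of Myc and ribosome biogenesis genes, 36 tested of 36 listed, 7 fell and 2 rose. Beside Odc1, Fbl, a nucleolar methyltransferase, fell (-0.43), and Paics of purine synthesis rose (0.36). Of p53 targets, 28 tested of 30 listed, 4 rose (14.3%) and 5 fell (17.9%). Fas (from a range of 3.68 to 4.68 CPM in SCR to 1.42 to 2.02 with KD1 and 1.93 to 2.2 with KD2), Rrm2b (-0.70) and Btg2 (-0.62) were among the fallers. Replication-dependent histones, whose transcripts lack poly(A) tails and so reach a poly(A) library in part, had 4 of 16 tested genes rising and none falling.

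Epithelial and mesenchymal genes did not change as blocks. Of epithelial genes, 16 tested of 34 listed, 3 rose and 5 fell: Spint2 and Krt18 rose, while Grhl2 and Spint1 (0.396 to 0.551 CPM in SCR, 0.0468 to 0.0865 with KD1 and 0.0236 to 0.0585 with KD2), the relative of Spint2, fell. Of mesenchymal genes, 18 tested of 23 listed, 2 rose and 5 fell. The growth factor receptor Pdgfrb rose (0.495 to 0.77 CPM in SCR, 10.1 to 13.4 with KD1 and 2.12 to 3.88 with KD2), and the transcription factors Snai2 (25.1 to 28.5 CPM in SCR, 9.6 to 10.7 with KD1 and 13.8 to 15.5 with KD2) and Prrx1 (30.0 to 32.6 CPM in SCR, 10.0 to 11.3 with KD1 and 19.7 to 22 with KD2) fell with both hairpins, as did Snai1 at a low level (0.256 to 0.317 CPM in SCR, 0 to 0.0865 with KD1 and 0.0708 to 0.148 with KD2). Of mammary markers, 9 tested of 17 listed, 5 rose (55.6%, against 13.2% of all tested genes) and none fell (median 1.11, or 2.22 with the 6 libraries fitted as a single group). Gata3, a luminal factor, stood at 45.8, 51.5 and 47.9 CPM in the SCR libraries, 101, 89.7 and 80.4 with KD1 and 101, 113 and 90.9 with KD2 (0.98 ± 0.08, SE), Esr1, the oestrogen receptor, at 6.85 to 7.43 CPM in SCR, 14.1 to 15.8 with KD1 and 12.2 to 21.3 with KD2 (1.11 ± 0.15, SE), and Krt8 at 656 to 696 CPM in SCR, 1221 to 1370.3 with KD1 and 752 to 853 with KD2. Epcam, Pgr and Foxa1, markers of the same luminal cells, had no count in any library. Myogenic factors, 8 tested of 14 listed, had 2 members rising and 3 falling; the intermediate filament gene Des fell with Myf5 (-1.25 ± 0.09, SE).

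Markers of cells that a pure culture should lack were checked in the same libraries. Of macrophage markers, 7 tested of 17 listed, 4 fell and 1 rose, and their summed level was 80.4 to 82.5 CPM in SCR, 35.5 to 39.8 with KD1 and 34.5 to 40.7 with KD2. Cd14 made up the fall in part (26.3 to 29 CPM in SCR, 7.04 to 7.52 with KD1 and 11.2 to 11.9 with KD2), with Mrc1 (3.21 to 4.57 CPM in SCR, 0.117 to 0.30 with KD1 and 1.06 to 1.85 with KD2) and Ptprc (0.551 to 0.818 CPM in SCR, 0.173 to 0.225 with KD1 and 0 to 0.0708 with KD2). The remaining faller, Lyz2, lay in a falling stretch of chromosome 10, described below. The complement gene C1qb rose (0 to 0.059 CPM in SCR, 0.202 to 0.374 with KD1 and 0.283 to 0.443 with KD2), and C1qa and C1qc, which code for the other chains of the same protein, had no count in any library. Lymphocyte markers summed to at most 1.60 CPM in any library, and none of 3 tested rose or fell. Of fibroblast markers, 6 tested of 12 listed, Pdgfrb rose and Col1a1 fell, and Thy1 had no count. Of endothelial markers, 6 tested of 13 listed, Cdh5 and Tie1 fell, with a summed level of 7.92 to 9.07 CPM in SCR, 7.04 to 8.21 with KD1 and 5.52 to 6.8 with KD2. The part of these genes in the other results was not tested.

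Interferon-induced genes mostly went opposite ways with the hairpins. All 50 listed were tested, and in 42 the hairpins were called in opposite directions. In the shared response 1 rose and none fell, 25 were called on the mean but overlapped, and 24 were not called. The list's median was 0.19 for the mean contrast, joining -1.31 with KD1 to 1.68 with KD2. Ifit2, which binds viral RNA, was the 1 shared riser, at 25.6 to 29.2 CPM in SCR, 32.5 to 35.2 with KD1 and 51.1 to 69.7 with KD2 (0.69 ± 0.09, SE). Of class I antigen presentation genes, 22 tested of 23 listed, H2-T23 (-0.71) and H2-M3 (-0.28) fell and the chaperone Canx rose (0.20). The hairpins were called in opposite directions in 12 of the 22, and the list's median was -0.81 with KD1 and 0.21 with KD2. Ifit2, H2-T23 and Canx were not called when the 6 libraries were fitted as a single group (adjusted p = 0.0616, 0.167 and 0.100, edgeR).

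**Figure D3:**
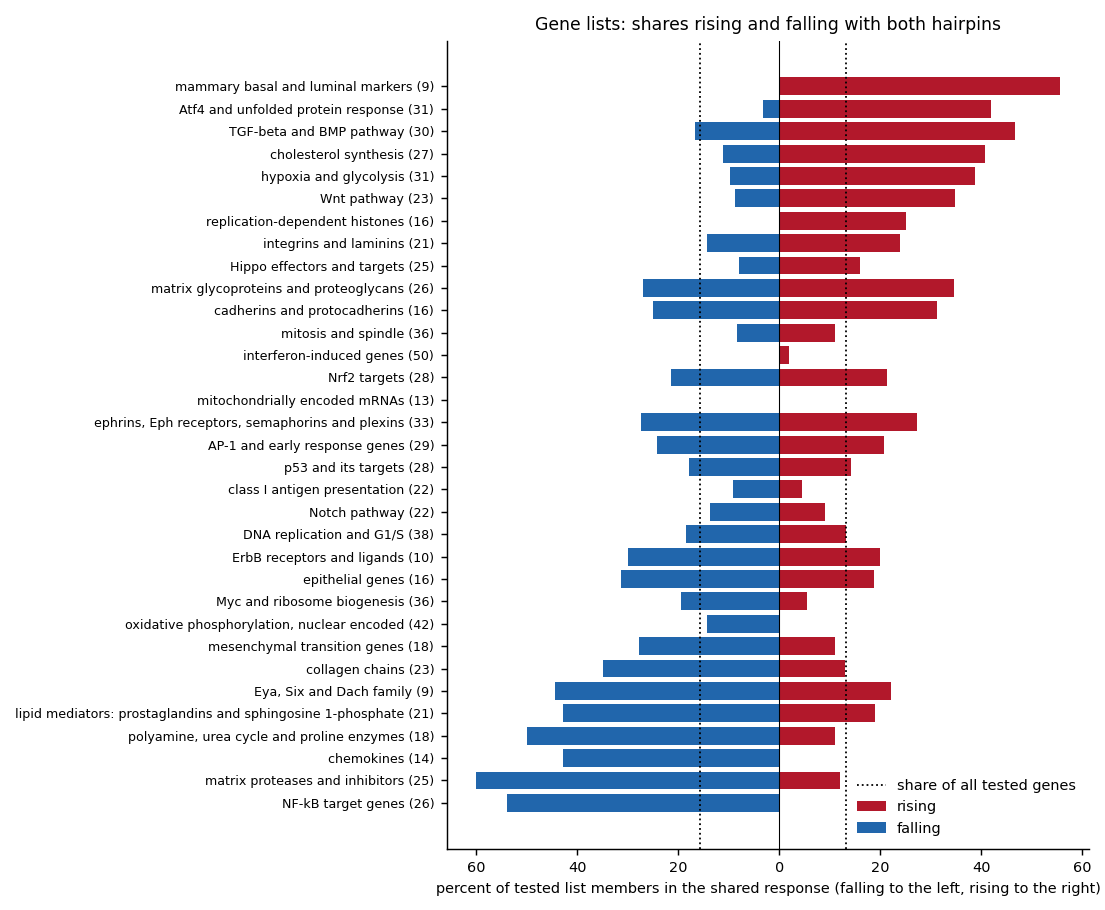
Share of tested members of 33 gene lists (number tested in brackets, at least 9) that rose (right) or fell (left) in the shared response; dotted lines mark the shares of all tested genes, 13.2% and 15.7%. NF-kB targets, matrix proteases with their inhibitors, and polyamine enzymes extend farthest to the left, and mammary markers, TGF-beta and BMP genes and Atf4 genes farthest to the right.

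The shared response was uneven along the genome. On chromosome 10, 39.6% of 748 tested genes fell and 7.75% rose, and on chromosome 13, 26.9% of 681 fell, against 15.7% of all tested genes. On chromosomes 12 and 17, 21.5% and 21.9% rose, against 13.2%. The excess on chromosome 10 lay beyond base 76459567 of mm10, where 229 of 434 tested genes (52.8%) fell and 5 rose. There, 380 of the 434 genes had a mean change below 0, with a median of -0.42, whereas the 314 genes before that base had a median of 0.01 and 21.3% fell. The library medians of the 434 genes, relative to the SCR mean, were -0.00354 to 0.00869 in SCR, -0.53 to -0.46 with KD1 and -0.30 to -0.28 with KD2. That base was set from these values, as the start of the first stretch defined below. The shares and medians beyond it therefore add no support. On chromosome 12 the genes beyond base 91806043, set in the same way, rose: 90 of 163 (55.2%), with a median of 0.57, 0.50 with KD1 and 0.58 with KD2, against -0.03 before it.

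**Figure D4:**
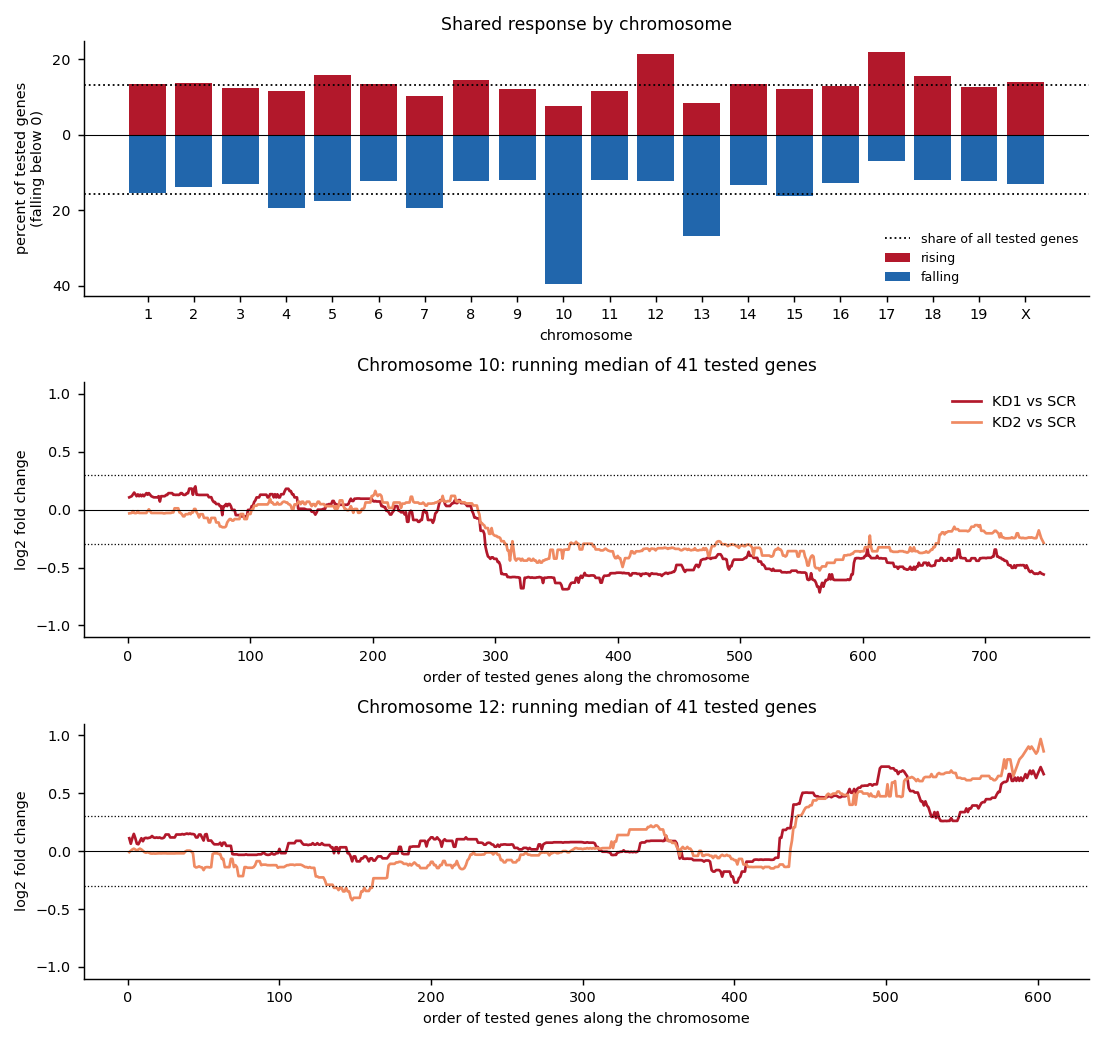
Top, share of tested genes on each chromosome that rose (above 0) or fell (below 0), with dotted lines at the shares of all tested genes; middle and bottom, running median over 41 tested genes of the log2 fold change of each hairpin along chromosomes 10 and 12, in gene order, with dotted lines at 0.3 and -0.3. Over the last part of each chromosome both hairpins run below 0 on 10 and above 0 on 12.

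A stretch was defined, after these values were seen, as at least 20 consecutive tested genes whose running median over 41 genes passed 0.3 in the same direction with both hairpins. There were 10: 4 on chromosome 10, 2 on chromosome 13 and 1 each on chromosomes 1 and 5, all falling, and 2 on chromosome 12, rising. They held 642 genes, 4.05% of those with a position. The falling stretches held 11.2% of the fallers, and the rising stretches 3.8% of the risers. The stretch on chromosome 1 (chr1:189879935-195323493) held 40 genes with a median of -0.54, Cd34 and Lamb3 among them, and the one on chromosome 5 (chr5:114923240-121687256) held 83 with a median of -0.38, Dtx1 and Rfc5 among them. Myf5, Syt1 and Fstl3 lay on the falling end of chromosome 10, and Nudt14, Serpina9, Syne3 and Mta1 on the rising end of chromosome 12. Of nuclear-encoded oxidative phosphorylation genes, 42 tested of 42 listed, 6 fell (14.3%, near the 15.7% of all tested genes) and none rose (against 13.2%). Of the 6, 5 lay in a stretch or on the falling end of chromosome 10. In stretches lay Ndufs7 (-0.58 ± 0.06) on chromosome 10, Uqcrb (-0.58 ± 0.07) on 13 and Cox6a1 (-0.40 ± 0.07) on 5 (SE). Atp5d (-0.53 ± 0.06) and Atp5b (-0.47 ± 0.06, SE) lay on that end of chromosome 10 but outside the stretches. On the NF-kB and chemokine lists none of the fallers lay in a stretch or on that end. Leaving out chromosomes 10, 12, 13 and 17, 3584 genes of the shared response remained. What sets the position of these genes was not tested.

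Over all chromosomes, adjacent genes shared a direction more often among members. Of the risers 32.8% had an adjacent tested gene that also rose, against 24.0% of all genes, and of the fallers 44.9% had an adjacent faller, against 27.8%.

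CG pairs were counted in the same promoter windows. Among the 8129 genes with a promoter, the median was 21 CG pairs in 300 bases, 23 for risers and 19 for fallers. It was 7 for the 231 fallers that changed over 4-fold and 11 for the 58 risers that did so. Promoters with fewer than 10 CG pairs made up 64.9% of the strong fallers, 46.6% of the strong risers and 18.6% of all. Genes low in SCR also hold few: among the 2461 with an SCR mean under 10 CPM the share was 41.5%, close to that of the strong risers. The strong risers had a median SCR level of 0.168 CPM and the strong fallers one of 1.72 CPM. Other motifs were counted in the same windows. TCAGGTT, the core of the MEF3 site, occurred in 3.38% of all promoters, 3.18% of risers and 3.63% of fallers. TGANTCA, the AP-1 site, occurred in 5.11%, 4.19% and 6.63%, and GGAATG, the TEAD site, in 12.1%, 10.5% and 13.4%. ACGTG of the hypoxia element occurred in 25.7%, 24.8% and 23.6%, TATAAA in 7.53%, 5.28% and 7.89%, and CCAAT in 40.1%, 38.8% and 39.1%. Both strands were searched, and no test was made.

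**Figure D5:**
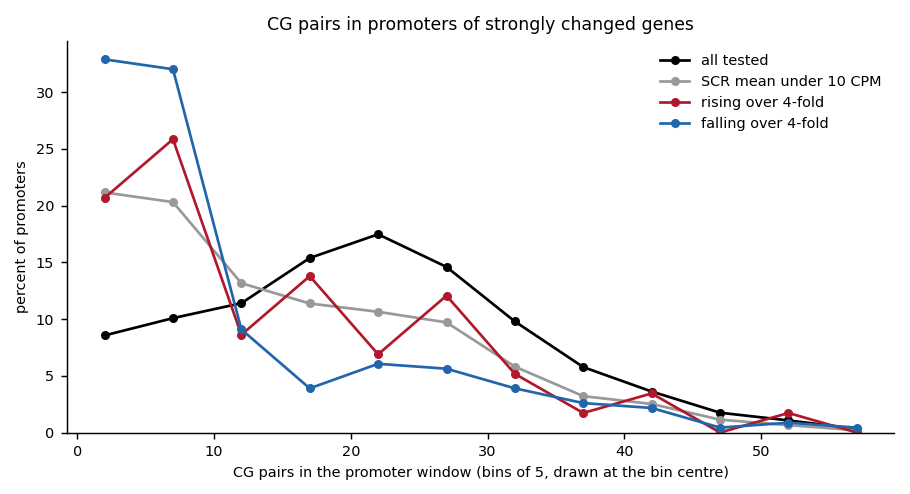
Percent of promoters (vertical axis) by number of CG pairs in the 300-base promoter window (horizontal axis, bins of 5) for all 8129 genes, for genes with an SCR mean under 10 CPM, and for risers and fallers that changed over 4-fold. Of the strong fallers 64.9% lie under 10 CG pairs, against 18.6% of all genes.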

How the data were processed

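Bulk RNA of 9 libraries (3 SCR, 3 KD1, 3 KD2) was extracted with a column kit and made into mRNA libraries with the NuGEN Universal Plus kit, per the labels' protocols. The authors deposited 1 table of raw read counts per gene symbol; FastQC, MultiQC, STAR and mm10 are named per the submitters' processing notes, without versions, and no source used here names the counting tool or its use of strand. All 55418 symbols matched GENCODE M21, and 115 stood for more than 1 gene.

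Counts were filtered with filterByExpr, scaled by TMM and fitted with edgeR 4.0.16 (quasi-likelihood, robust) in R 4.3.3 over all 9 libraries, with the contrast of the mean of both hairpin groups minus SCR. P-values were adjusted by Benjamini-Hochberg over all 15914 genes tested, at a threshold of 0.05. No overlap was judged on TMM-scaled CPM. The exact tests used SciPy 1.17.1. The test code was checked on simulated counts. Library totals of 27758862 to 52691960 set the precision, and intervals and floors (3 counts) cover counting error only. Replicate numbers did not pair the libraries. Alternatives were limma 3.58.1 (voom), DESeq2 1.42.0, other filters, scalings, groupings, a minimum fold, thinning and each library left out.

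Named genes were Eya3, the 12 largest changes each way, the 8 largest at 100 CPM or more, the 6 largest with even hairpins, the 6 smallest p-values, up to 4 members of each of 38 lists, and 4 each way of those called without separation; predicted genes and pseudogenes were passed over. Eya1, Six3, Cxcl2, Cxcl5, Ppbp, Erbb2, Cox6a1 and Lyz2 were added after their values were seen. The members and lists were chosen with earlier results of these data known. Some genes of these lists are not reported here.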

Additional observations from a re-analysis of the deposited data

Results flagged for a closer look

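Acss3 was called on the mean of the hairpins and with each hairpin in opposite directions. Its log2 change with KD2 exceeded that with KD1 by 10.09 in the test of the difference itself, with almost no count under KD1 and a level above SCR under KD2.

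The same test of hairpin against hairpin called 904 genes of the rising shared response and 1213 of the falling one, so that a direction common to both hairpins often came with unequal size.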

How the results depend on the processing

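The size of the response depended on what counted as error. Fitting the 6 shEya3 libraries as a single group called 1588 genes upward and 1787 downward, and requiring a change over 1.5-fold called 509 and 1193, of which 409 and 1027 did not overlap with SCR. The minimum fold keeps only part of the same calls by its construction. The single-group fit, also by construction, counts the distance between hairpins as spread. How many of the lost calls were due to this was not tested. Against SCR, KD1 alone gave 3752 rising and 4095 falling genes without overlap, and KD2 alone gave 3544 rising and 3445 falling. Ranking by p-value shared 15 of the 50 leading risers and 11 of the 50 leading fallers with the ranking by mean change, and ranking by the smaller change shared 29 of the fallers. Leaving out 1 library at a time gave 2889 to 3952 genes called upward and 3446 to 4183 downward, of which 2014 to 2330 and 2568 to 2789 did not overlap, and an Eya3 change of -1.36 to -1.26. Canx was no longer called without SCR replicate 3, nor Pnma2 without KD2 replicate 2, and Canx and H2-T23 were not called with KD2 alone. The medians of the 38 gene lists moved by more than the spread between replicates in 10 lists in the single-group fit (4 changed sign), in 13 outside chromosomes 10, 12, 13 and 17 (4 changed sign) and in up to 6 without 1 SCR library (up to 4 changed sign). With KD1 alone 22 moved and 12 changed sign, with KD2 alone 23 and 8; none moved with RLE size factors or the replicate block. With KD2 alone, Gypc changed by 0.11, Dnah7a by 0.27 and Acss3 by 1.25, and Acss3 by 0.25 in the single-group fit, all opposite to their mean change. DESeq2 gave 4563 genes in the shared response, limma 4622, no filter 4874, thinning to the shallowest library 4208 and a filter of 5 CPM 3488. With a replicate block, which the correlations of same-numbered libraries (-0.11 to 0.20) do not call for, the count was 4601, and 4593 of these were in the main response; the pairing changed no call on a named gene. Leaving out chromosomes 10, 12, 13 and 17 was chosen after seeing the data.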
